A study of Homo sapiens with 7 samples.

Results

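The MYC and 8q24 prostate risk region was described in chromatin immunoprecipitation sequencing (ChIP-seq) of acetylated HOXB13 in C4-2B cells, a prostate cancer line derived from LNCaP that grows without testicular androgen. Its members were all deposited peaks that share at least 1 bp with chromosome 8 from 127500000 to 129200000 (hg19, counted from 1). The interval was set by position and by no measured value, but it was chosen with earlier results of these data known. Of the 148463 peaks in the 6 deposited lists, 245 lay in it. Each list came from HOXB13-K13ac chromatin: 69 of 41303 peaks of replicate 1 were members, 68 of 45216 of replicate 2 against input, 15 of 18232 of replicate 3 against input, and 67 of 36205 in a list against input that no label ties to a library. Replicate 2 was also called against IgG, with 26 of 7506 peaks in the region, and replicate 3 against IgG had 0 of its 1 peak there.

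The series holds 7 libraries, of which 3 are HOXB13-K13ac precipitations, 2 are IgG controls and 2 are inputs of sheared chromatin. All came from untreated C4-2B cells kept in medium with charcoal-stripped, hormone-depleted serum, and no other line or treatment was compared. IgG and input enter here only as the control of a list, and for the list of replicate 1 the labels name no control. The labels do not say whether the 3 replicates were separate cultures, so the spread between them may be technical. Read depth is unknown, because the lists hold no counts.

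HOXB13 is a DNA-binding homeodomain protein of prostate epithelium, and the antibody recognises it when acetylated at lysine 13. MYC encodes a transcription factor that drives cell growth and division and is a common oncogene of prostate cancer. The 8q24 gene desert before it carries many inherited prostate cancer risk variants and is known for enhancers that contact MYC over long distances. POU5F1B is a retrogene copy of the pluripotency factor gene POU5F1 within that desert, and PVT1 is a long noncoding RNA gene just after MYC. In the order of RefSeq genes on GRCh38.p14, the protein-coding gene LRATD2 is followed by noncoding genes that include PCAT1, PCAT2, PRNCR1, CASC19, CCAT1, CASC21, CASC8 and CCAT2, and then by POU5F1B, CASC11, MYC and PVT1. No annotation of hg19 was used, so sites are placed by distance from the MYC start at 128748315. They are not assigned to LRATD2 or to these noncoding genes.

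Replicate 3 stood apart from the other libraries in the region as it did over the genome. Its 15 members had a median fold enrichment of 4.11 and a highest of 5.61, and 0 of them reached a −log10 q of 5, against 6.28% of its whole list. In replicate 1, 47 of 69 members (68.1%) reached that value, against 80.7% of its list, and in replicate 2 against input 48 of 68 (70.6%), against 67.2%. Fold enrichment is the peak caller's value at the summit as the authors deposited it, and it describes a peak only within its own list. The lists of replicates 1 and 3 are told apart by the spelling of their names alone. The title of replicate 1 begins with the number 2898 and those of replicates 2 and 3 with 3047, and the labels do not say what these numbers mark. Exchanging the lists of replicates 1 and 3 would leave the size of each value as it is, but the sites shared by the 2 strong lists would then lie within one of these numbers instead of between them. Peaks of replicates 1 to 3 that overlapped were joined into one region, and a region with peaks from at least 2 libraries is termed a replicated site. The sites listed below therefore rest mainly on replicates 1 and 2: 38 of 39 replicated sites in the region held peaks of both. There were 38 sites without replicate 3, whereas there were 5 without replicate 1 and 4 without replicate 2, where a site needed 1 of the 15 peaks of replicate 3.

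**Figure D1:**
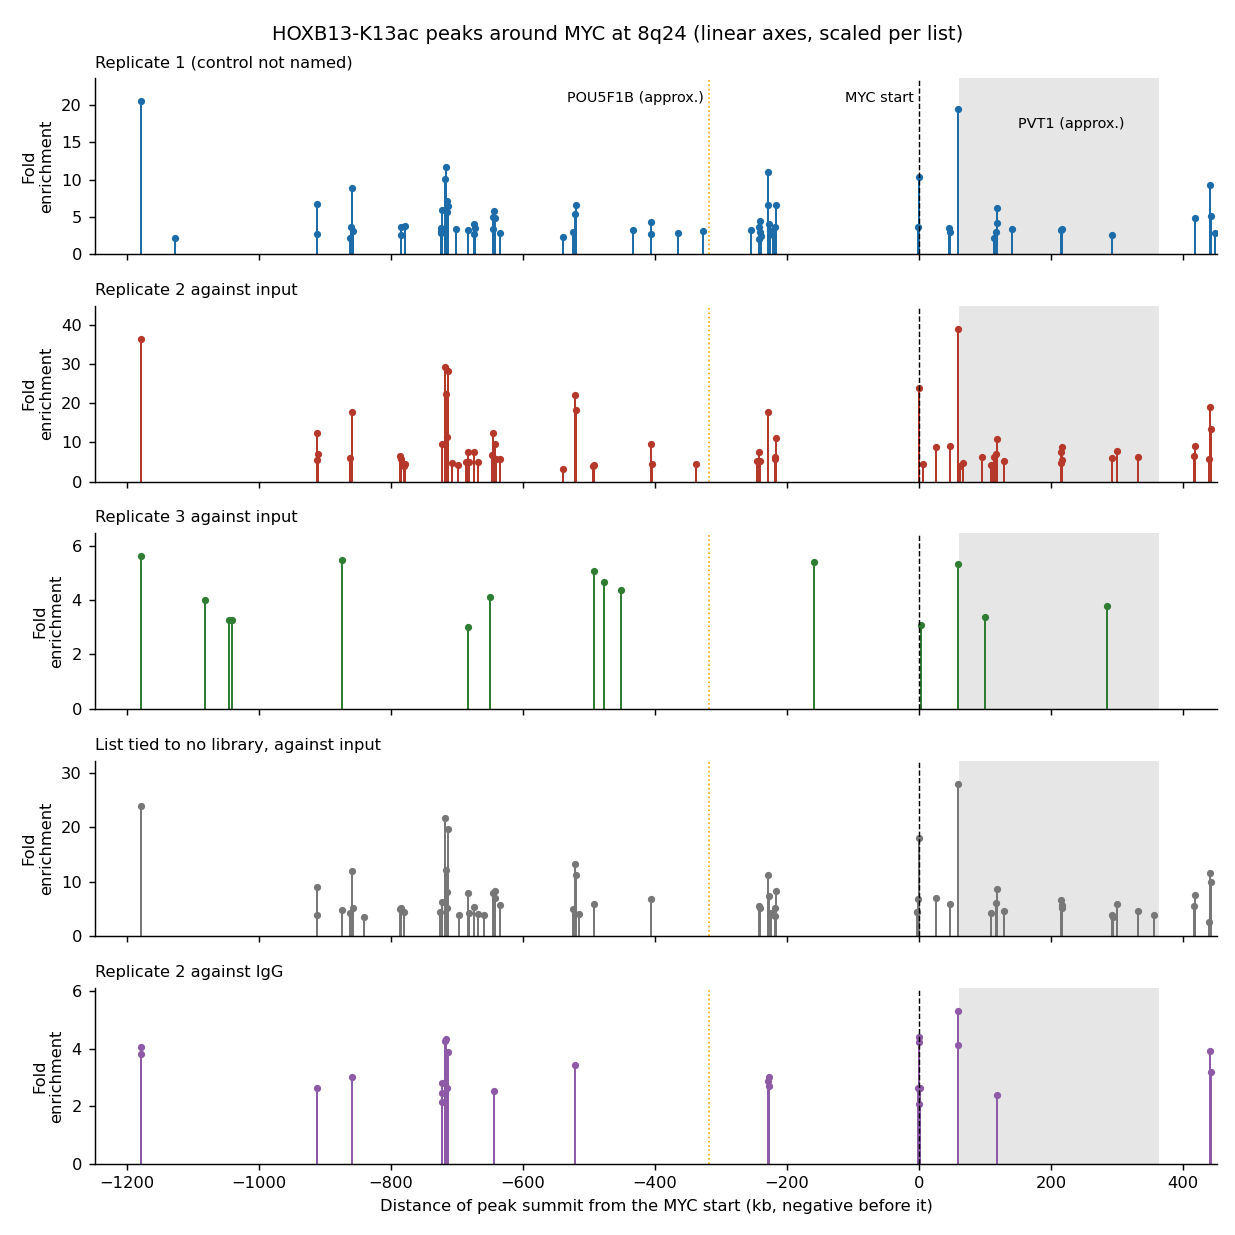
Fold enrichment (linear axis, scaled per list) of each peak in the 8q24 region against the distance of its summit from the MYC start in kb, with 1 panel per list. The dashed line marks the MYC start, the dotted line the approximate POU5F1B position and the grey band the approximate PVT1 body. Tall peaks stand near 1178.8 kb and between 725.4 and 711.0 kb before MYC, at its start and near 59.2 kb after it in the lists of replicates 1 and 2 and the list tied to no library, and replicate 3 does not exceed 5.61. In replicate 1 the peak 228.18 kb before MYC (10.98-fold) is taller than the one at the MYC start (10.3-fold).

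The MYC start lay inside a broad acetylated HOXB13 peak in replicates 1 and 2. In replicate 1 this peak ran from 128746496 to 128751842, 5.35 kb long, 10.3-fold enriched at a −log10 q of 83.8. In replicate 2 against input it ran from 128744901 to 128752327, 7.43 kb long, with a fold of 23.97 and a −log10 q of 90.7. It was the widest of the 68 members of that list. The peaks covered 65.7% and 74.8% of the 5366 bp MYC body. Their summits nearly coincided, at 372 bp and 407 bp before the start.

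The list tied to no library had its main MYC peak at a fold of 18.1, 5.75 kb long and with its summit 366 bp before the start. It added 3 narrow peaks between 2.26 and 3.30 kb before the start. Replicate 3 had 1 narrow peak here, 301 bp long, in the gene body 2.14 kb after the start, with a fold of 3.10 and a −log10 q of 0.975. It did not cover the start, so the presence of MYC among the sites of all 3 libraries rests on overlap with the broad peaks and not on a shared summit. Against IgG, replicate 2 had 5 peaks of 241 to 1387 bp over the same stretch. Their summits lay from 1.61 kb before to 1.99 kb after the start, with folds of 2.07 to 4.39. The strongest, 4.39-fold, had its summit 411 bp before the start, 4 bp from the summit against input. Its −log10 q was 1.07, which is a q of 0.0856, and 3 of the 5 had a −log10 q of 0. Replicates 1 and 2 each had 1 more narrow peak within 10 kb of the gene, of 358 bp and 3.64-fold 2.14 kb before the start in replicate 1, and of 266 bp and 4.44-fold at the 3' end of MYC in replicate 2.

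**Figure D2:**
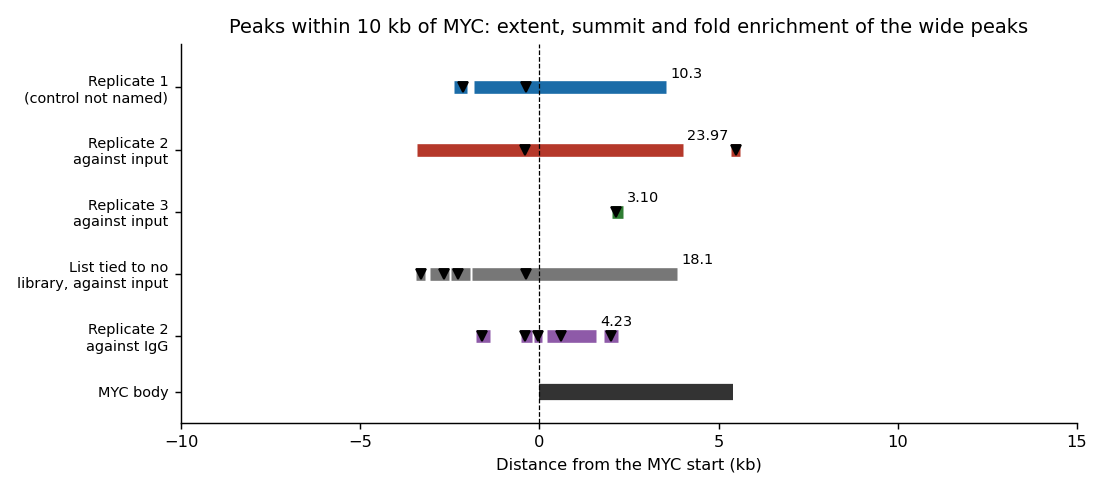
Extent (bars) and summits (triangles) of every peak within 10 kb of MYC, by list, on an axis of distance from the MYC start in kb. Numbers give the fold enrichment of peaks wider than 1 kb and of the replicate 3 peak. The broad peaks span the start with summits near 0.4 kb before it, and the replicate 3 peak lies 2.14 kb after it.

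The site at the beginning of PVT1 was more enriched than the one at MYC in each list that held both. It ran from 128806019 to 128809058, its midpoint 59.2 kb after the MYC start, and ended within the 10 kb to which the PVT1 start, about 128.81 Mb, is known here. Its fold was 19.5 in replicate 1, 39.0 in replicate 2, 5.31 in replicate 3 and 28.0 in the list tied to no library. The 39.0 was the highest fold of the region in replicate 2 and ranked 371 of 45216 in that list. The 19.5 ranked 308 of 41303 in replicate 1. In replicate 2 against IgG the site had the highest fold of the region, 5.30, with a −log10 q of 2.77. Unlike at MYC, the replicate 3 summit here, 58.22 kb after the MYC start, fell beside that of replicate 1 (58.21 kb). The summit of replicate 2 lay further along, at 58.70 kb, outside the 165 bp of the replicate 3 peak.

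Between MYC and this site, a replicated site 972 bp wide lay 46.1 kb after the MYC start, with folds of 3.56 in replicate 1, 9.19 in replicate 2 and 5.86 in the list tied to no library. It was the nearest replicated site after MYC. Inside the PVT1 body, 6 of 18 merged regions were replicated, or 20 sites per Mb (95% Poisson interval 7.34 to 43.5). These sites were weaker than the one at the PVT1 start, with folds of 2.17 to 6.17 in replicate 1 and 6.03 to 10.9 in replicate 2, and replicate 3 had 0 peaks in any of them. The strongest, 118.3 kb after the MYC start and 3286 bp wide, had folds of 6.17 in replicate 1, 10.9 in replicate 2 and 8.76 in the list tied to no library, and was also called against IgG at 2.39-fold with a −log10 q of 0. It closed a run of 3 sites from 112.6 to 120.0 kb. A pair of sites at 214.2 and 216.6 kb had folds of 3.24 and 3.38 in replicate 1 and 7.50 and 8.78 in replicate 2. The last was a site of 485 bp at 292.4 kb, with folds of 2.52 in replicate 1 and 6.03 in replicate 2.

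After PVT1, the strongest sites lay near the end of the interval. A site 440.1 kb after the MYC start had folds of 9.27 in replicate 1, 19.0 in replicate 2 and 11.6 in the list tied to no library, and 3.90 against IgG with a −log10 q of 1.92. Its neighbour at 441.7 kb had 5.07 in replicate 1, 13.5 in replicate 2 and 9.89 in the list tied to no library. The third site of this stretch, at 417.4 kb, had 4.84 in replicate 1 and 9.19 in replicate 2. Replicate 3 had 0 peaks there.

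POU5F1B had no replicated site near it. Within 10 kb of its approximate position, 128.43 Mb, the 6 lists together held 1 peak, in replicate 1, which ended 8.6 kb before that position and had a fold of 3.13. Replicate 2 had its nearest peaks 19.2 kb before (4.59-fold) and 72.4 kb after it (5.27-fold), and replicate 3 had its nearest 133.2 kb before and 159.1 kb after it. The nearest replicated sites lay 86.2 kb before and 75.2 kb after it. They fall on either side of a stretch of 161 kb without a replicated site, which held 3 peaks of replicate 1 and 2 of replicate 2.

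Between POU5F1B and MYC, 5 of 11 merged regions were replicated, and all 5 lay between 242.7 and 215.8 kb before the MYC start. The strongest was 4.46 kb wide with its midpoint 227.3 kb before the start, from 128518769 to 128523232. Its fold was 10.98 in replicate 1, 17.8 in replicate 2 and 11.3 in the list tied to no library, and it was called against IgG at 3.01-fold with a −log10 q of 1.01. It opened a run of 3 sites that continued with a site at 217.9 kb (3.60 in replicate 1, 6.19 in replicate 2) and one at 215.8 kb (6.54 in replicate 1, 11.0 in replicate 2). A pair at 242.7 and 241.5 kb had 3.70 and 4.49 in replicate 1 and 7.41 and 5.28 in replicate 2. The site at 215.8 kb was the nearest replicated one before MYC. The 212 kb from its end to the broad MYC peak held 0 peaks in replicates 1 and 2, 1 in replicate 3 (5.38-fold, 159.15 kb before the start) and 1 in the list tied to no library, the outermost of its narrow peaks before MYC.

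The desert before POU5F1B held 22 replicated sites among 47 merged regions, 23.7 per Mb (95% Poisson interval 14.8 to 35.8). The outermost, 1178.8 kb before the MYC start, was among the strongest of the whole interval. It ran from 127568382 to 127570689 with folds of 20.5 in replicate 1, 36.5 in replicate 2, 5.61 in replicate 3 and 23.9 in the list tied to no library. Its summits in these 4 lists lay between 1177.91 and 1177.83 kb before MYC. Whether this site lies at LRATD2, the first gene in the order given above, was not tested. The 20.5 was the highest fold of the region in replicate 1 and the 5.61 the highest in replicate 3. It was followed by the longest stretch without a replicated site, 266 kb, which held 6 peaks of the replicate lists (2 from replicate 1, 1 from replicate 2 and 3 from replicate 3), none of them overlapping another.

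The densest part of the desert was a block of 4 adjacent sites from 128022904 to 128037288, 725.4 to 711.0 kb before MYC. Its 14.4 kb held 9 peaks in replicate 1, 5 in replicate 2 against input, 7 in the list tied to no library and 7 in replicate 2 against IgG, and peaks covered 13.4 kb of it. In replicate 1 the folds of the 4 sites, from the far end towards MYC, were 5.89, 10.03, 11.7 and 6.45. In replicate 2 they were 9.51, 29.3, 22.4 and 28.2, and in the list tied to no library 6.29, 21.7, 12.2 and 19.6. Replicate 3 had 0 peaks in this block. The replicate 2 fold thus reached that of MYC (23.97) or more at 2 of the 4 sites, while in replicate 1 only the third site exceeded the MYC value of 10.3.

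The other desert sites reached at most 8.82 in replicate 1 and 22.0 in replicate 2. A site 858.3 kb before MYC had folds of 8.82 in replicate 1 and 17.7 in replicate 2. One at 910.8 kb had 6.68 in replicate 1 and 12.3 in replicate 2. A run of 3 sites from 645.9 to 633.9 kb reached 5.83 in replicate 1 and 12.5 in replicate 2. The highest replicate 2 fold of these other desert sites belonged to a pair at 522.5 and 519.6 kb, which had 5.37 and 6.59 in replicate 1 and 22.0 and 18.3 in replicate 2. The weakest run, 3 sites from 785.5 to 778.3 kb, stayed at or below 3.76 in replicate 1 and 6.64 in replicate 2. At 683.5 kb a small site of 905 bp was present in all 3 libraries, with folds of 3.18 in replicate 1, 7.65 in replicate 2 and 3.00 in replicate 3. Its −log10 q in that last library was 0.889, below the 0.975 of that library at MYC. At 492.6 kb was the one site that lacked replicate 1, with 4.16 in replicate 2 and 5.06 in replicate 3.

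**Figure D3:**
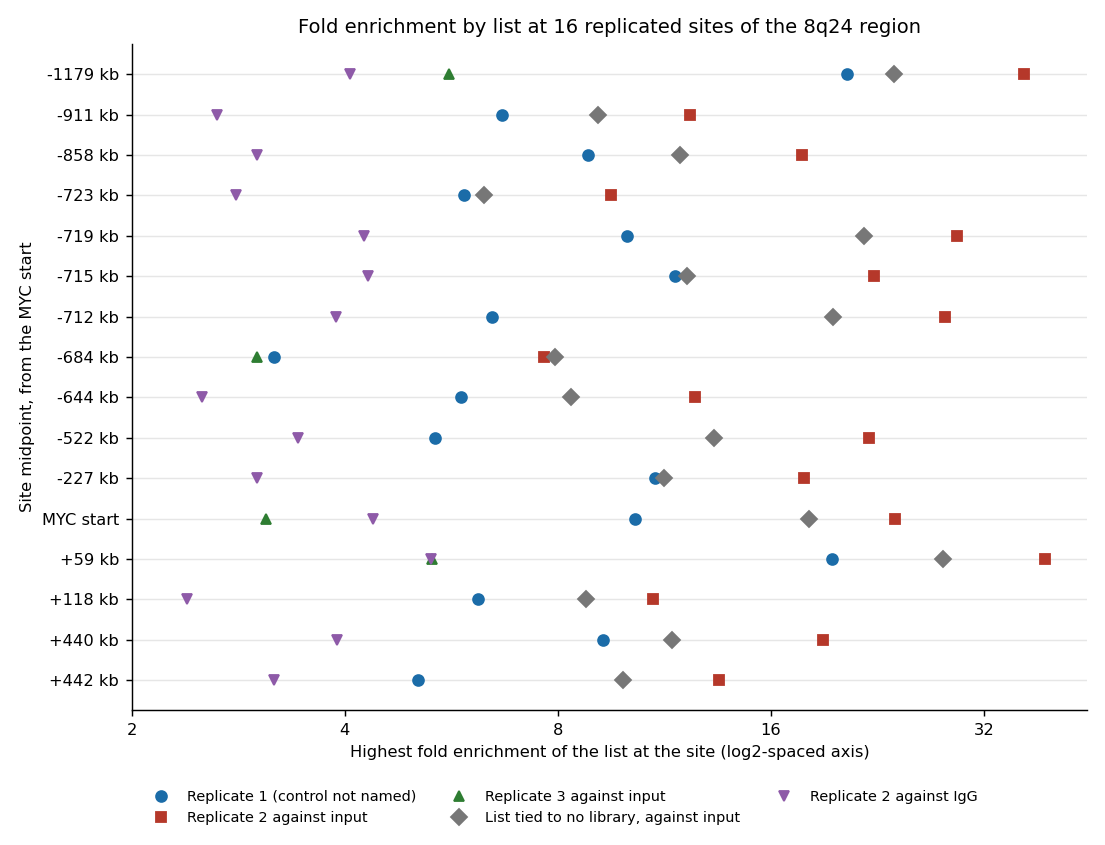
Highest fold enrichment of each list (log2-spaced axis) at the 16 replicated sites that were present in all 3 libraries or called against IgG, in order of distance from the MYC start in kb. Replicate 2 against input exceeds replicate 1 at all 16, and its folds against IgG stay at or below 5.30.

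In all, the peaks of the 3 replicate lists merged into 88 regions, of which 39 (44.3%, exact 95% binomial interval 33.7 to 55.3) were replicated, against 41.2% over the genome. Sites in all 3 libraries numbered 4, at 1178.8 and 683.5 kb before MYC, at MYC and at the PVT1 start. They were 4.55% of the merged regions (1.25 to 11.2), against 6.99% over the genome, and 10.3% of the replicated sites (2.87 to 24.2), against 17.0%. Each of these intervals covers counting error only and includes the genome value. Of the 15 replicate 3 members, 5 lay in a replicated site and 10 shared sequence with no peak of replicates 1 or 2, as did 69.2% of its whole list. The other regions of a single library were 14 of replicate 1, with a median fold of 3.08, and 25 of replicate 2, with a median of 4.97. The highest of these replicate 2 peaks, 8.90-fold and 25.0 kb after the MYC start, was also held by the list tied to no library.

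The region held more peaks per Mb than the rest of the genome in all 3 libraries, with an interval that includes a ratio of 1 in replicate 3. Replicate 1 had 40.6 peaks per Mb in the region and 13.8 in the rest of the genome, a ratio of 2.95 (exact 95% interval 2.30 to 3.73). Replicate 2 against input had 40.0 and 15.1 per Mb, a ratio of 2.66 (2.06 to 3.37). Replicate 3 had 8.82 and 6.08 per Mb, a ratio of 1.45 (0.81 to 2.40). The mean log2 ratio over the 3 lists was 1.17, with a p of 0.25 in the exact two-sided sign-flip permutation test, which is the smallest that 3 lists can give. Replicated sites stood at a ratio of 2.55 (1.81 to 3.48) to the rest of the genome and 3.11 (2.20 to 4.28) to the rest of chromosome 8. Without replicate 1 the ratio to the rest of the genome was 1.87 (0.61 to 4.38) and without replicate 2 it was 1.47 (0.40 to 3.76), both with intervals that include 1. Neighbouring peaks are not independent, so these intervals are too narrow. When the genome apart from chromosome Y was cut into 1718 other windows of the same length, the median was 11 replicated sites (interquartile range 4.00 to 23.0). Of these windows, 161 held 0 sites, 91.9% held fewer than the 39 of the region and 131 held more. On chromosome 8, 81 of 83 windows held fewer. Sequence to which reads cannot be mapped was not taken out of the windows or the rest, which can raise these ratios and shares. By length, peaks covered 3.49% of the region and 0.980% of the rest in replicate 1, and 4.78% and 1.27% in replicate 2.

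**Figure D4:**
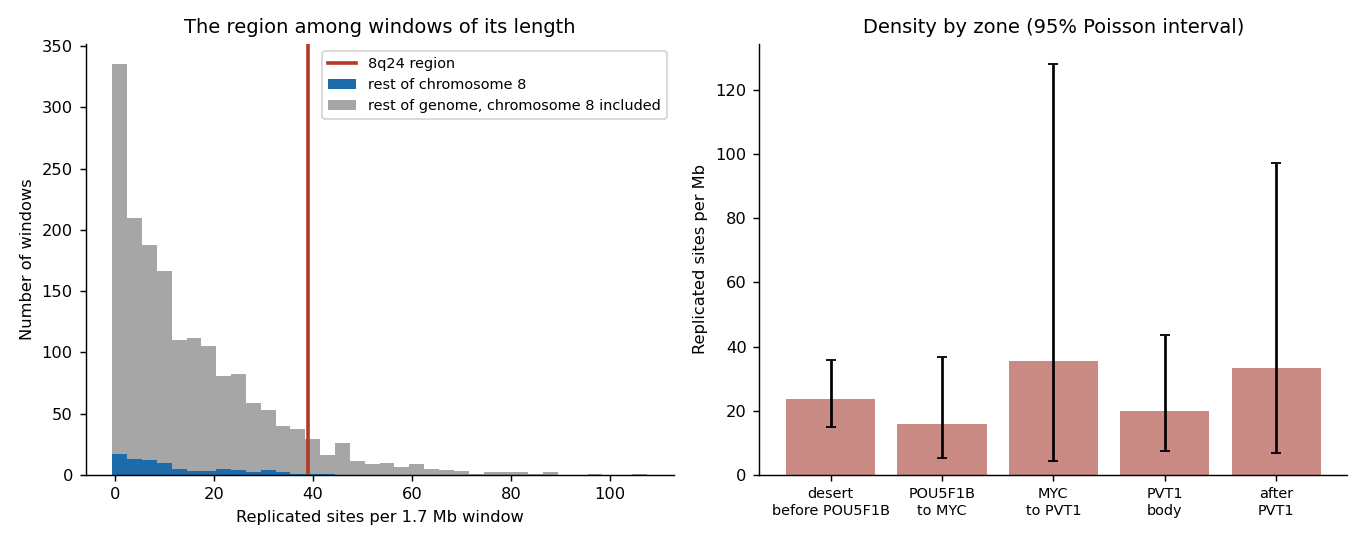
Left, number of windows of 1.7 Mb by the replicated sites they hold, with the 39 of the 8q24 region as a line. Right, replicated sites per Mb by zone of the region with exact 95% Poisson intervals, the MYC body left out because it is too short for a density; the intervals of all 5 zones overlap.

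Short gaps were a larger share of the gaps here than over the genome. Gaps of 10 kb or less made up 18 of the 38 gaps between replicated sites of the region (47.4%), and 37.0% of those of the whole genome. Stitching at that distance gave 5 runs of at least 3 sites, which held 16 sites (41.0% of the 39), compared with 29.5% of all replicated sites. These shares were given no interval, and close spacing was not tested apart from the higher density of sites. Some short gaps lie within nearly continuous signal, as in the desert block, where peaks covered 13.4 of 14.4 kb. The number of runs moved with the definition of a site: there was 1 where peaks had to overlap by a share of 0.5 of both widths or the lists were of equal length, and there were 2 with summits within 100 bp or a −log10 q of 5 or more. With the list tied to no library in place of replicate 3 there were 8, and without replicate 1 or replicate 2 there were 0. The largest run had the 4 sites of the desert block, while the largest of the genome had 30. Such runs are defined by spacing alone and are not calls of super-enhancers. Around MYC itself the spacing was uneven: within 100 kb, 0 replicated sites lay before the start and 3 after it, counting the site over the start by its midpoint, and within 250 kb 5 lay before and 8 after.

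Although numerous, the sites of the region were not more enriched than other replicated sites in the median. Their median fold was 4.66 in replicate 1 (interquartile range 3.19 to 6.58), against 5.83 (4.06 to 8.96) at replicated sites elsewhere. In replicate 2 it was 9.19 (6.24 to 17.7), against 9.37 (6.42 to 14.8). Their median width was 1235 bp, against 1005 bp elsewhere. Replicate 2 exceeded replicate 1 at all 38 sites that held both, by a median of 2.05 times and between 1.18 and 4.37 times, compared with 88.3% of sites and a median of 1.65 times elsewhere. The controls of the lists may differ, since none is named for replicate 1, and the part of this in the ratio was not tested. The order of the sites was alike: Spearman's rho between the folds was 0.86 over these 38 sites and 0.71 over the 26722 elsewhere. Both are across sites of the same libraries and are given as a description. The strongest summits of the 2 lists were a median of 79.0 bp apart, against 80.0 bp elsewhere.

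**Figure D5:**
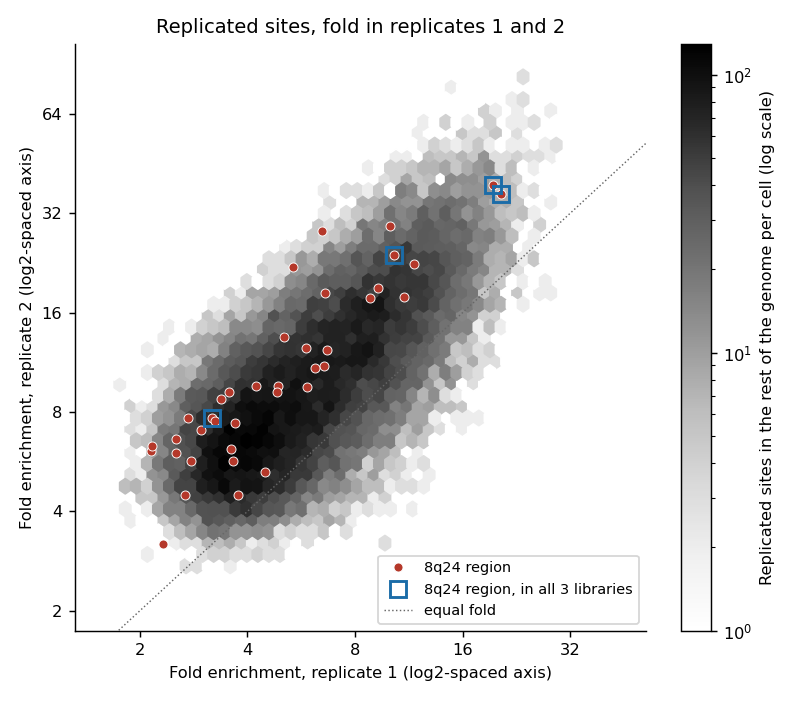
Fold enrichment of replicated sites in replicate 1 (x) and replicate 2 (y), both on log2-spaced axes. Circles are the 38 sites of the 8q24 region with both values, squares those in all 3 libraries, and shading counts sites in the rest of the genome. All 38 lie above the line of equal fold.

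IgG, the non-specific background of the study, was compared through replicate 2. All 26 of its region peaks against IgG lay in replicated sites, as did 99.9% of the whole list, and they fell in 15 of the 39 (38.5%, exact 95% binomial interval 23.4 to 55.4), against 23.2% of all replicated sites. Limited to peaks over IgG at q of 0.05 or below, 6 of the 39 sites were called (15.4%, 5.86 to 30.5), against 5.55%. Those 6 include the sites at 719.2, 715.3 and 712.1 kb before MYC, adjacent parts of the 14.4 kb desert block. Such neighbours are counted as independent, so the intervals of these shares are too narrow. Of the 26 peaks, 7 reached a q of 0.05 or less (26.9%, 11.6 to 47.8), against 21.5% of the list, and 11 had a −log10 q of 0. The density of this list was 15.3 peaks per Mb in the region and 2.50 in the rest of the genome, a ratio of 6.13 (4.00 to 8.99). This ratio counts peaks and not sites: of the 26, 7 lay in the desert block and 5 at MYC. Its interval treats them as independent and is too narrow.

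The 6 sites with a q of 0.05 or less were those at the PVT1 start (5.30-fold), at 715.3, 719.2 and 712.1 kb before MYC (4.32, 4.26 and 3.89), at 1178.8 kb before MYC (4.07) and at 440.1 kb after it (3.90). MYC, with the second highest fold over IgG, 4.39, was not among them. The site at 1178.8 kb passed narrowly, at a q of 0.0479, through a peak whose summit lay outside 1177.91 to 1177.83 kb before MYC. Those distances bound the summits of this site in the other lists that held it. Its peak over IgG with a summit at 1177.91 kb had a fold of 3.81 and a −log10 q of 0.577. The sites called against IgG had a median fold over input of 18.96 in replicate 2 (9.51 to 39.0), against 6.85 (3.19 to 18.3) at the 24 sites not called, so the ranges overlapped. Over all replicated sites the medians were much the same, 18.7 where called and 7.89 where not. The call over IgG and the fold over input use the same replicate 2 precipitation, so they are not independent measures. At each of the 15 sites the highest fold over input was 3.38 to 8.99 times the highest fold over IgG. These 2 folds need not share a summit, and at the site with 8.99, 1178.8 kb before MYC, they did not. Replicate 3 against IgG had 0 peaks in the region, and no list of replicate 1 is named as called against IgG, so this comparison rests on 1 library.

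The list tied to no library held 35 of the 39 replicated sites (89.7%, 75.8 to 97.1), against 86.9% over the genome. The 4 sites it lacked were among the weaker ones, with folds in replicate 2 of 3.19 to 6.29. It held 13 of the 25 regions of replicate 2 alone (52.0%, 31.3 to 72.2), against 29.5% over the genome, 0 of the 14 of replicate 1 alone, against 4.86%, and 1 of the 10 of replicate 3 alone, against 7.91%. Of its own 67 members, 6 shared sequence with no peak of replicates 1 to 3, against 4.70% of its whole list. The labels do not say whether this list shares reads with replicates 1 to 3, so its values are not taken as independent of theirs.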

How the data were processed

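ChIP-seq peak lists of HOXB13-K13ac libraries from C4-2B cells were analysed. The submitters' processing notes name the tools MACS2, Bowtie2, BWA and CASAVA (1.4) and the builds GRCh37 and hg19. The sources used here do not give what each did, or the thresholds, filter or pooling. The fold enrichment (a ratio over the control's background), the −log10 p and the −log10 q of each peak were used as deposited by the authors.

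Lists were tied to libraries by name. Peaks sharing 1 bp were merged over the replicate lists (input as control where there was a choice), and regions with 2 or more libraries were replicated sites. Densities used the span between the first and last peak of any list per chromosome, with no sequence taken out. Peaks against IgG were matched to sites by 1 bp. Intervals are exact (95% binomial, Poisson or conditional) and cover counting error only. Gene positions came from the rule that defines the region, those of POU5F1B and PVT1 to 10 kb. Python 3.11.15, NumPy 2.4.6, pandas 2.3.3, SciPy 1.17.1 and matplotlib 3.10.9 were used, and the code was tested on simulated lists. The members and zones were chosen with earlier results of these data known. Named sites were those at or next to MYC, in all 3 libraries, in runs of 3 or more, called against IgG, or among the 5 strongest of a zone. A few weak or single-library peaks were named after their values were seen.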

Additional observations from a re-analysis of the deposited data

Results flagged for a closer look

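The list tied to no library is outside the replicate comparisons, and its 67 peaks in the 8q24 region are named here for that reason. The list was called against input. The median fold enrichment of its peaks was 5.60 in the region, against 6.39 in the rest of that list. Of the 67, 6 shared no sequence with a peak of any replicate list, against 4.70% of the whole list, and this share was given no interval.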

How the results depend on the processing

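Of the results, the denser peaks of the region kept their direction in every alternative run, with mean log2 ratios of 0.98 with lists of equal length, 1.40 at a −log10 q of 5 or more (replicates 1 and 2 alone, since replicate 3 had no such peak in the region), 1.56 with the list tied to no library in place of replicate 3, and 1.31 against the rest of chromosome 8. Counts depended on how overlap was defined. With a share of 0.5 of both widths there were 24 replicated sites (18.8% of the merged regions), 2 sites called against IgG and 1 run of 3 or more. With summits within 100 bp, 21.0% were replicated and 2 runs were left. At a −log10 q of 5 or more, 57.1% were replicated, with 2 runs. With lists of equal length there were 18 sites and 1 run. The list tied to no library in place of replicate 3 gave 61.2% and 8 runs. With peaks over IgG limited to a q of 0.05, 6 sites were called against IgG. Leaving out 1 replicate at a time gave 4 to 38 sites, 5% to 48.7% replicated, a density ratio of 1.47 to 2.51, 3 to 15 sites called against IgG, 0 to 5 runs, and mean log2 ratios of 0.97 to 1.49. The low ends came without replicate 1 or 2, where the intervals of the density ratio included 1. The other alternatives stayed within the interval or 1.5 times of the value given above. No paired analysis was possible because the IgG and input libraries have no peak list of their own.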
